A study of Mus musculus with 10 samples.

Results

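Type I interferon-stimulated genes (ISGs) are the genes that cells switch on when type I interferons reach them. The 37 ISGs described here were chosen by their symbols, with no measured value in the rule. Earlier results of these data were known when they were chosen. All 37 were found by symbol among the 52550 genes of the deposited expression table, and all 37 passed the filter on low values that left 14787 genes for testing. The RNA came from precursors of conventional dendritic cells (cDCs) of the spleen of C57BL/6 mice. The wild-type mice (WT) gave 3 libraries of pre-cDC1, the committed precursor of the cDC1 lineage, and 2 of pre-cDC2, the precursor of the cDC2 lineage. The mice labelled CD11c-cre Adam10fl/fl (KO below) also gave 3 and 2, and their dendritic cells and other cells that use the CD11c promoter make Cre recombinase, which cuts out the floxed segment of Adam10, the gene of a membrane protease that sheds surface proteins. The labels name no stimulus for any group, and the sources used here give no age, no sex and no word on whether the WT mice carried Cre or floxed alleles. The labels do not say that replicates are separate mice, so every p-value measures only the spread between libraries.

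Type I interferons (the many interferon alphas and interferon beta) bind a receptor of the subunits IFNAR1 and IFNAR2. The receptor's kinases TYK2 and JAK1 set off the assembly of the transcription factor complex ISGF3, of which IRF9 is a part. ISGF3 enters the nucleus and binds the interferon-stimulated response element (ISRE) in front of ISGs. Interferon gamma uses another receptor and acts mainly through the gamma-activated site (GAS), and many ISGs answer to both. The products sense foreign RNA and DNA, stop translation, degrade RNA, block viral entry or tag proteins. Cells also keep a low level of many ISGs without infection through weak constant interferon signalling. In the spleen, plasmacytoid dendritic cells are known for making much type I interferon after virus, and cDC1 need to receive it for full cross-priming of T cells.

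The stretches below were chosen because they show the ISRE core in front of members whose level differed between the cell types (Gbp7, Oas1a, Oas3, Ifit1, Ifit3 and Ddx60) and in front of others that passed no test (Isg15 and Rsad2). They are RefSeq sequences on build GRCm38.p6, given 5′ to 3′ on the strand of the gene and ending before the RefSeq transcription start. Capitals mark matches to the ISRE core, searched as GAAANNGAAA and, for the other strand, TTTCNNTTTC.
Gbp7: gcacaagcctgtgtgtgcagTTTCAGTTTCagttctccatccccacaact
Oas1a: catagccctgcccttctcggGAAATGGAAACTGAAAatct
Oas3: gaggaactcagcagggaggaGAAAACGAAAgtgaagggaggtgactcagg
Ifit1: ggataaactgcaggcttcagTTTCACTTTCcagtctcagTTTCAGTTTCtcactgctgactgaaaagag
Ifit3: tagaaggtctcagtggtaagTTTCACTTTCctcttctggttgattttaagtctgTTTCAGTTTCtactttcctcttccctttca
Ddx60: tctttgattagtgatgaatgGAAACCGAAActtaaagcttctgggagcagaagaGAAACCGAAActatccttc
Isg15: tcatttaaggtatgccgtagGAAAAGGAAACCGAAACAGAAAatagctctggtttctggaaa
Rsad2: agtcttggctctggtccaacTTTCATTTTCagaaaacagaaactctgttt
In Oas1a and Isg15 the matches overlap, so that their capitals run on. These stretches lie at chr3:142530263-142530312 (Gbp7, plus strand), chr5:120907526-120907565 (Oas1a, minus strand), chr5:120777705-120777754 (Oas3, minus strand), chr19:34640765-34640833 (Ifit1, plus strand), chr19:34583353-34583436 (Ifit3, plus strand), chr8:61928014-61928086 (Ddx60, plus strand), chr4:156200855-156200916 (Isg15, minus strand) and chr12:26456543-26456592 (Rsad2, minus strand).

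RefSeq promoter windows, each from 250 bases before to 50 bases after a transcription start, were at hand for 27 of the 37 members. Parp14, Rtp4, Mx1, Dhx58, Usp18, Oas2, Zbp1, Parp9, Mx2 and Ifi27l2a had no entry. An ISRE core on either strand was found in 15 of the 27 members (55.6%), against 1079 of all 27025 genes with a window of the same length (3.99%). N stands for any base. The GAS letters TTCNNNGAA, which read the same on both strands, were found in 7 of 27 members (25.9%) and in 9.55% of all genes. Genes can have several windows, and a match is a description of letters and not a site of binding. Isg15 held 3 overlapping ISRE cores, Gbp3, Oas1a, Ifit1, Ifit3, Ddx60, Ifitm3 and Trim30a held 2 each, and the others held 1. Of the 12 members with a window that were higher in pre-cDC2 in either genotype by the test described below, 9 held an ISRE core (75.0%). Of the 14 with a window that passed no test, 6 did (42.9%). The only member with a window that was lower in pre-cDC2, Ifi44, held none. These groups were taken from the results of the same data, so the shares are description only.

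**Figure D1:**
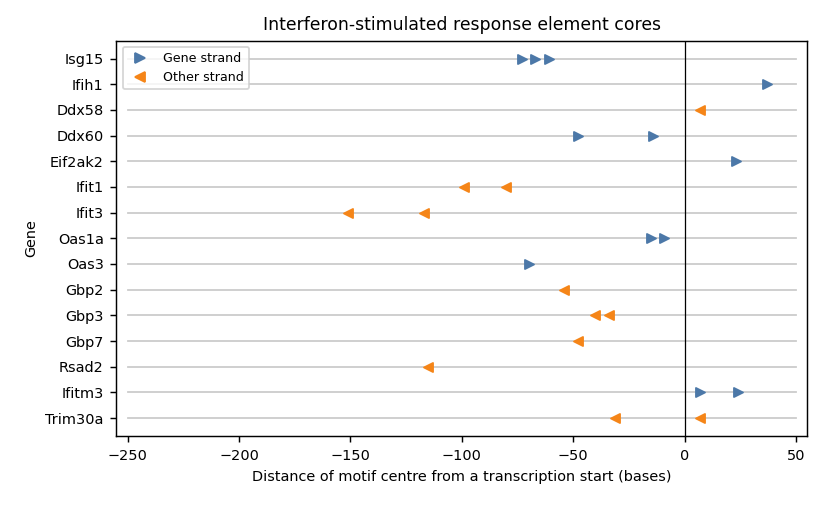
Positions of ISRE core matches around RefSeq transcription starts in the 15 members that hold one, with the distance in bases on the x axis, 1 gene per line and the grey line marking the window searched. Arrowheads pointing right are matches on the strand of the gene and those pointing left are on the other strand. Most lie before a start, those of Ifih1, Ddx58, Eif2ak2 and Ifitm3 lie after it, and Trim30a has 1 on each side.

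The map of ISRE cores shows that the 3 guanylate-binding protein genes carry theirs on the strand opposite to the gene and close before the start, at 53 bases (Gbp7), 45 and 39 bases (Gbp3) and 59 bases (Gbp2) before it. In Oas1a the overlapping cores begin 20 and 14 bases before the start.

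The deposited values are log2 RPKM, the binary logarithm of reads per kilobase of gene and of sequencing depth, so levels of different genes are compared per length. How reads shared by near-identical copies were counted is not stated, so values of members with close relatives (Ifit3, Oas1a, the Gbp genes, Trim30a and Ifi27l2a) are less certain. Whole reads could be recovered from them, and the libraries held 7862417 to 13177642 reads. Tests were limma comparisons over all 14787 genes with Benjamini-Hochberg adjustment, and a gene is said to have passed where the adjusted p was below 0.05. Differences are given in log2 RPKM ± SE of that fit, with n = 3 libraries per pre-cDC1 group and n = 2 per pre-cDC2 group. The labelled cell types were set beside markers. All 10 cDC1 markers (among them Xcr1, with 44 to 72 reads in pre-cDC2 against 8207 to 14480 in pre-cDC1) were lower in pre-cDC2 in both genotypes. Of 11 tested cDC2 markers, 2 were higher in WT pre-cDC2 and 9 in KO pre-cDC2. The titles of the pre-cDC2 samples carry Ly6C and the cDC2 list holds the gene Ly6c2, so Ly6c2 is no independent check of that label.

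The targeted gene was read first. Adam10 (ENSMUSG00000054693.14, chromosome 9, 70678997 to 70780229) had 28, 48 and 10 reads (WT) against 9, 3 and 13 (KO) in pre-cDC1, which is -0.64, 0.13 and -2.29 against -2.45, -3.90 and -1.50 log2 RPKM, with overlapping groups and a difference of -1.68 ± 0.92 log2 (limma adjusted p = 0.644). In pre-cDC2 its level was 1.76 and 4.53 log2 RPKM in WT replicates 2 and 3 and 4.24 and 4.11 in the KO, a difference of 1.03 ± 1.12 log2 (95% interval -1.50 to 3.56). The pre-cDC2 libraries labelled KO were thus not below WT in Adam10, and the lowest of the 4 was WT replicate 2. Which part of Adam10 is floxed is not stated in the labels, and reads from the remaining exons would check nothing, so the genotype of the pre-cDC2 libraries rests on their labels alone. Below, KO means the libraries labelled so.

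The pre-cDC2 libraries also held transcripts of other cells, and WT pre-cDC2 replicate 2 differed from the other pre-cDC2 libraries in them. All 16 T cell markers had reads in every pre-cDC2 library, with summed levels of 138.0 RPKM in WT replicate 2, 2797 in WT replicate 3 and 1888 to 2030 in KO, against 14.7 to 26.0 RPKM in WT and 4.16 to 5.05 in KO pre-cDC1. The 12 NK cell markers summed to 102 RPKM in WT replicate 2, 1848 in WT replicate 3 and 1501 to 1670 in KO, against 57.4 to 64.2 in WT and 40.0 to 44.2 in KO pre-cDC1. The 11 plasmacytoid markers went the other way, with 1119 RPKM in WT replicate 2, 441 in WT replicate 3 and 520 to 627 in KO pre-cDC2, against 147 to 213 in pre-cDC1. The 12 cDC2 markers summed to 1538 RPKM in WT replicate 2, 1227 in WT replicate 3 and 1052 to 1150 in KO pre-cDC2. In every pre-cDC2 library but WT replicate 2 this sum was below that of the T cell markers. Of the other marker lists, 6 of 8 core cDC genes were lower in pre-cDC2 in both genotypes. Of 7 tested monocyte and neutrophil genes 1 was lower in WT and 2 in KO pre-cDC2, and of 8 red pulp macrophage genes 2 were higher and 1 lower in KO. Of 5 tested B cell genes 3 were higher in KO pre-cDC2, and of 8 erythroid genes 4 were lower in WT pre-cDC2. Because these are bulk libraries, fewer cells of a type and less RNA per cell cannot be told apart. The part of these transcripts in the results that follow was not tested.

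Taken over all 37 members, the mean level was 2.62 to 3.0 log2 RPKM in WT pre-cDC1, 2.67 to 2.72 for the KO, and in pre-cDC2 it was 3.67 and 3.68 for the WT and 3.68 and 3.74 for the KO. This mean was higher in every pre-cDC2 library than in any pre-cDC1 library, and within pre-cDC1 the WT and KO libraries overlapped. Every member had at least 1 read in every library. The levels ranged widely. Ifitm3, which blocks the fusion of viruses with endosomes, had the highest mean over all libraries (7.04 log2 RPKM), followed by Trim30a (6.55), Lgals3bp (6.30) and Sp100 (5.93). Ddx60, a helicase-like cofactor of RNA sensing, had the lowest (-0.57), next to Gbp7 (0.40) and Rtp4 (0.54). By group mean the lowest was Gbp7 in WT pre-cDC1 (-3.14 log2 RPKM), Rtp4 in KO pre-cDC1 (-2.13), Ddx60 in WT pre-cDC2 (0.49) and Herc6 in KO pre-cDC2 (1.499). Above 0 log2 RPKM on average were all 37 members in both pre-cDC2 groups, against 34 (WT) and 32 (KO) in pre-cDC1. This cut is also that of the filter on low values, and no such count over all tested genes is given here.

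**Figure D2:**
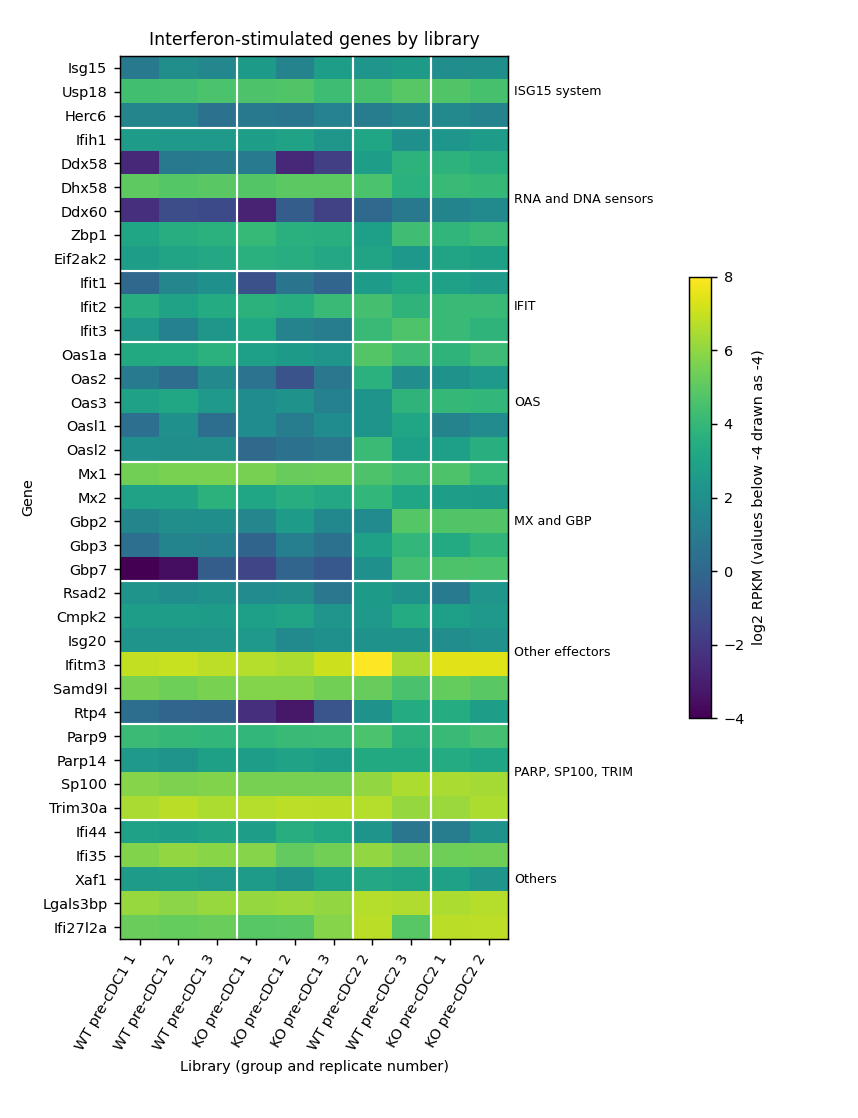
Level of each of the 37 members (lines, grouped by role) in each of the 10 libraries (columns), as a colour from dark blue (low) to yellow (high) in log2 RPKM. Gbp7, Ddx58, Ddx60 and Rtp4 are darkest in pre-cDC1, and Gbp2 of WT pre-cDC2 replicate 2 has the colour of the pre-cDC1 libraries.

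The comparison of pre-cDC2 with pre-cDC1 asked how the libraries labelled as these cell types differ in their ISG levels. In WT, 8 members were higher in pre-cDC2 (Gbp7, Gbp3, Rtp4, Ifit3, Oasl2, Oas1a, Sp100 and Lgals3bp) and Mx1 was lower, 9 of 37 in all (24.3%). Of all tested genes, 11.5% passed, with 4.88% higher and 6.59% lower. In KO, 14 members were higher and 3 lower, 17 of 37 in all (45.9%), against 20.8% of all tested genes, with 10.7% higher and 10.1% lower. All 9 members that passed in WT were among the 17, and those that passed in KO alone were Oas3, Ifit1, Gbp2, Ddx58, Ddx60 and Ifi27l2a (higher) and Dhx58 and Ifi44 (lower). Gbp7 and Ddx60 were below 0 log2 RPKM in every pre-cDC1 library, and Rtp4 in all but WT replicate 1. These members thus passed the filter (above 0 in at least 2 libraries) only through pre-cDC2. Their calls as higher in pre-cDC2 are not independent of that filter. The median difference over the members was 0.56 log2 in WT and 0.33 in KO, against 0.06 and 0.09 over all tested genes. The groups did not overlap for 22 members in WT (38.7% of all tested genes) and for 25 in KO (51.7% of all tested genes), with 17 and 18 of them higher in pre-cDC2. Centring each library on its median moved every difference by -0.12 log2 in WT and -0.19 in KO, and 6 and 16 members then passed. The share of all tested genes that passed in that fit is not given here.

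The WT count rests on 2 pre-cDC2 libraries that differ from each other. With only the 2 WT groups in the fit none of the 9 passed (3.11% of all tested genes did, and 18 members had an unadjusted p below 0.05). By voom on the recovered reads 12 passed (32.4%, against 13.3% of all tested genes), the 9 with Ddx58, Ddx60 and Parp14. Without WT pre-cDC2 replicate 2, 10 members passed (27.0%, against 18.4% of all tested genes), of which 6 were shared with the 9 (Gbp3, Gbp7, Lgals3bp, Mx1, Rtp4 and Sp100). Without WT pre-cDC2 replicate 3, 6 passed (16.2%, against 10.4% of all tested genes), of which 3 were shared (Lgals3bp, Oas1a and Oasl2). Without WT pre-cDC1 replicate 1, 2, or 3, the count was 2, 4 or 5 (with 6.76%, 7.13% or 7.68% of all tested genes), and without KO pre-cDC2 replicate 1 or 2 it was 5 in each case (with 9.39% and 9.52%). None of the 9 passed in all 10 fits that each left out a library. The KO count fell to 6 and 5 without KO pre-cDC2 replicate 1 and 2 and to 10 without KO pre-cDC1 replicate 1 or 3, while 9.59%, 11.2%, 15.5% and 16.0% of all tested genes passed in these fits, and Gbp3, Oas1a, Oasl2, Rtp4 and Sp100 passed in all 10 such fits. Below, for members that passed, the adjusted p is followed, where 1 omission ended the call, by its highest value over these fits.

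**Figure D3:**
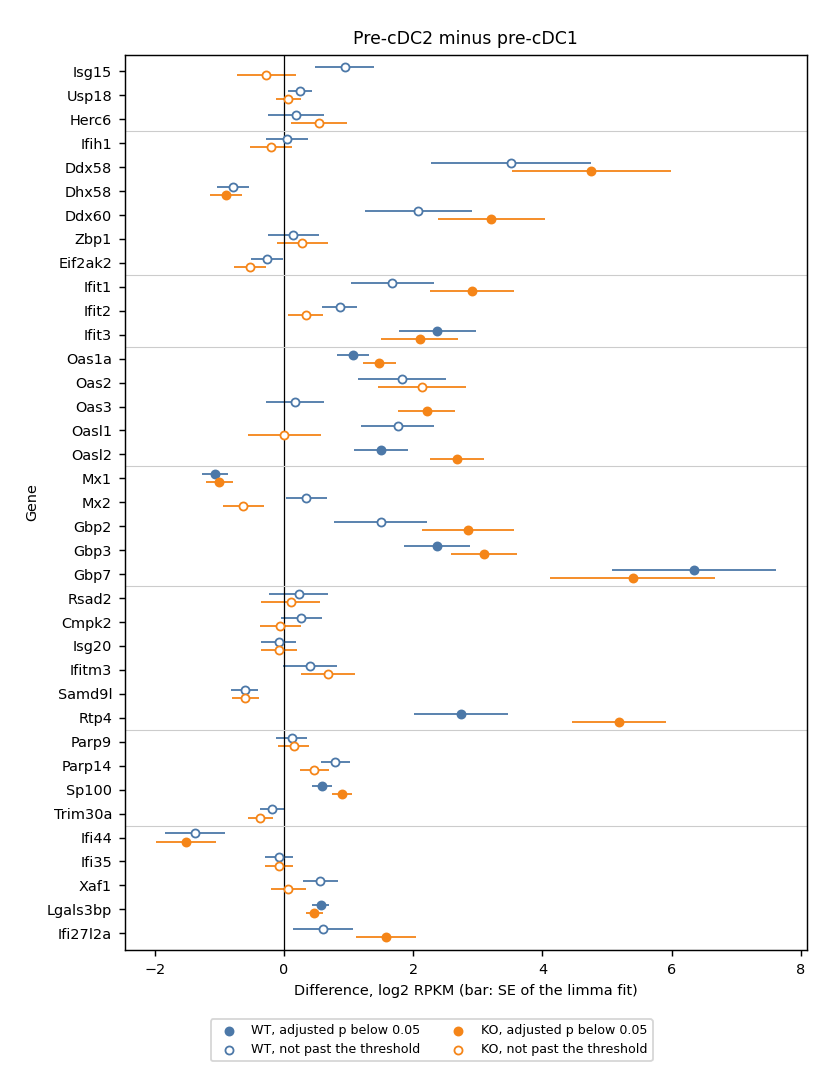
Difference between pre-cDC2 and pre-cDC1 for each member in log2 RPKM (points, with bars of ± SE from the limma fit), in WT (blue) and KO (orange). Filled points passed the test (9 in WT, 17 in KO) and open points did not, and Gbp7, Rtp4 and Ddx58 lie farthest to the right.

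The guanylate-binding proteins (GBPs) are large GTPases that coat intracellular pathogens and are induced by interferon gamma as well as by type I interferon. Their genes stand together on chromosome 3. Gbp7 (ENSMUSG00000040253.15, chromosome 3, 142530342 to 142550149) had -5.37, -3.57 and -0.47 (WT) and -1.51, -0.08 and -0.70 (KO) log2 RPKM in pre-cDC1, and 2.01 and 4.40 (WT) and 4.65 and 4.61 (KO) in pre-cDC2. Its reads were 1, 4 and 41 in WT and 20, 52 and 26 in KO pre-cDC1, and 310 to 1389 in pre-cDC2, so that all pre-cDC2 libraries lay above all pre-cDC1 libraries. The difference was 6.34 ± 1.27 log2 in WT (limma adjusted p = 0.0127; 0.0953 without WT pre-cDC2 replicate 3) and 5.39 ± 1.27 in KO (limma adjusted p = 0.0160; 0.108 without KO pre-cDC2 replicate 1), and its size in WT depends on the few reads of pre-cDC1 replicates 1 and 2.

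Gbp3 (ENSMUSG00000028268.14, chromosome 3, 142560026 to 142573209) had 0.38, 1.44 and 1.27 (WT) and -0.15, 1.17 and 0.47 (KO) log2 RPKM in pre-cDC1, and 2.87 and 3.93 (WT) and 3.33 and 3.85 (KO) in pre-cDC2. The groups did not overlap in either genotype, and the differences were 2.37 ± 0.51 log2 in WT (limma adjusted p = 0.0171; 0.114 without WT pre-cDC2 replicate 3) and 3.09 ± 0.51 in KO (limma adjusted p = 0.00270). Gbp2 (ENSMUSG00000028270.12, chromosome 3, 142620602 to 142638008) had 1.53, 1.94 and 1.98 (WT) and 1.56, 2.58 and 1.59 (KO) log2 RPKM in pre-cDC1, and 1.80 and 4.82 (WT) and 4.75 and 4.76 (KO) in pre-cDC2. Its 3 other pre-cDC2 libraries lay at 4.75 to 4.82 log2 RPKM and WT replicate 2 among the pre-cDC1 libraries. Gbp2 thus passed in KO (2.84 ± 0.72 log2; limma adjusted p = 0.0213; 0.125 without KO pre-cDC2 replicate 1) and not in WT (1.49 ± 0.72; limma adjusted p = 0.233), where the difference was 3.01 ± 0.42 (limma adjusted p = 0.00211) without replicate 2 and -0.02 ± 0.43 without replicate 3.

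The MX proteins are dynamin-like GTPases that trap viral components, in the nucleus for mouse MX1 and in the cytoplasm for MX2. C57BL/6 mice, like most inbred strains, are known to carry a damaged Mx1 that gives no working protein. Mx1 (ENSMUSG00000000386.14, chromosome 16, 97447035 to 97462907) ran against the GBPs. It had 5.42, 5.57 and 5.60 (WT) and 5.52, 5.20 and 5.32 (KO) log2 RPKM in pre-cDC1, and 4.67 and 4.26 (WT) and 4.64 and 4.05 (KO) in pre-cDC2. Every pre-cDC1 library was above every pre-cDC2 library, and Mx1 was lower in pre-cDC2, with differences of -1.06 ± 0.21 log2 in WT (limma adjusted p = 0.0106; 0.0573 without WT pre-cDC2 replicate 3) and -1.0 ± 0.21 in KO (limma adjusted p = 0.00850; 0.0793 without KO pre-cDC2 replicate 2). Mx2, which the GENCODE annotation lists as a polymorphic pseudogene, had 2.93, 2.90 and 3.69 (WT) and 3.11, 3.46 and 3.27 (KO) log2 RPKM in pre-cDC1, and 3.97 and 3.06 (WT) and 2.67 and 2.64 (KO) in pre-cDC2. Its difference was 0.34 ± 0.32 log2 in WT and -0.63 ± 0.32 in KO and passed neither test.

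The OAS enzymes make a short nucleotide messenger from ATP when they bind double-stranded RNA, and the messenger activates the nuclease RNase L. Mouse OASL1 is a relative without this activity that holds back translation of Irf7. The 5 genes lie on chromosome 5 in separate groups of Oas and Oasl genes. Oas1a (ENSMUSG00000052776.10, chromosome 5, 120896256 to 120907521) had 3.28, 3.32 and 3.66 (WT) and 2.76, 2.53 and 2.28 (KO) log2 RPKM in pre-cDC1, and 4.77 and 4.21 (WT) and 3.78 and 4.22 (KO) in pre-cDC2. It was higher in every pre-cDC2 library than in every pre-cDC1 library, by 1.07 ± 0.25 log2 in WT (limma adjusted p = 0.0236; 0.0921 without WT pre-cDC2 replicate 2) and 1.48 ± 0.25 in KO (limma adjusted p = 0.00310).

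Oasl2 (ENSMUSG00000029561.17, chromosome 5, 114896936 to 114912234) had 2.02, 2.0 and 1.92 (WT) and 0.16, 0.53 and 0.75 (KO) log2 RPKM in pre-cDC1, and 4.16 and 2.79 (WT) and 2.79 and 3.52 (KO) in pre-cDC2. Its WT pre-cDC1 values lay close together and above all 3 KO pre-cDC1 values. The difference between cell types was 1.496 ± 0.42 log2 in WT (limma adjusted p = 0.0499; 0.209 without WT pre-cDC2 replicate 2) and 2.68 ± 0.42 in KO (limma adjusted p = 0.00214). Oas3 (ENSMUSG00000032661.9, chromosome 5, 120753098 to 120777661) had 2.88, 3.15 and 2.51 (WT) and 1.83, 2.18 and 1.29 (KO) log2 RPKM in pre-cDC1, and 2.23 and 3.82 (WT) and 3.99 and 3.95 (KO) in pre-cDC2. Here WT pre-cDC2 replicate 2 lay below all 3 WT pre-cDC1 libraries and replicate 3 above them. Oas3 passed in KO (2.21 ± 0.45 log2; limma adjusted p = 0.00787; 0.0674 without KO pre-cDC2 replicate 1) and differed by 0.17 ± 0.45 in WT (limma adjusted p = 0.858). Oas2 and Oasl1 passed in neither genotype. Oas2 differed by 1.83 ± 0.68 log2 in WT and 2.14 ± 0.68 in KO (limma adjusted p = 0.0547), and Oasl1 by 1.76 ± 0.57 in WT (limma adjusted p = 0.0800) and 0.0 ± 0.57 in KO.

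Of the IFIT proteins, IFIT1 binds RNA ends that lack the marks of host messenger RNA and keeps such RNA from being translated. Ifit1, Ifit2 and Ifit3 are neighbours on chromosome 19. Ifit3 (ENSMUSG00000074896.3, chromosome 19, 34583531 to 34588731) had 2.51, 1.25 and 2.33 (WT) and 3.13, 1.37 and 1.09 (KO) log2 RPKM in pre-cDC1, and 4.10 and 4.71 (WT) and 4.13 and 3.81 (KO) in pre-cDC2. All pre-cDC2 libraries lay above all pre-cDC1 libraries, with differences of 2.37 ± 0.59 log2 in WT (limma adjusted p = 0.0320; 0.172 without WT pre-cDC2 replicate 3) and 2.10 ± 0.59 in KO (limma adjusted p = 0.0339; 0.194 without KO pre-cDC2 replicate 1). Ifit1 (ENSMUSG00000034459.8, chromosome 19, 34640871 to 34650009) had 0.02, 1.54 and 2.01 (WT) and -1.04, 0.62 and -0.07 (KO) log2 RPKM in pre-cDC1, and 2.59 and 3.15 (WT) and 2.85 and 2.65 (KO) in pre-cDC2. It was 145 to 262 reads deep in pre-cDC2 against 13 to 109 in pre-cDC1, and it passed in KO (2.91 ± 0.65 log2; limma adjusted p = 0.0120; 0.0951 without KO pre-cDC2 replicate 1) and not in WT (1.68 ± 0.65; limma adjusted p = 0.137). Ifit2 had 3.48, 2.89 and 3.37 (WT) and 3.73, 3.50 and 4.12 (KO) log2 RPKM in pre-cDC1, and 4.45 and 3.78 (WT) and 4.14 and 4.09 (KO) in pre-cDC2. The groups of Ifit2 did not overlap in WT, yet the difference of 0.87 ± 0.27 log2 did not pass (limma adjusted p = 0.0735), and in KO it was 0.33 ± 0.27.

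The cytoplasmic sensors split between the cell types. Ddx58 encodes RIG-I and Ifih1 encodes MDA5, which bind viral RNA and signal through MAVS, and Dhx58 encodes LGP2, a relative without signalling domains that tunes both. Ddx58 (ENSMUSG00000040296.15, chromosome 4, 40203773 to 40239828) had -2.63, 0.87 and 0.90 (WT) and 0.92, -2.62 and -1.72 (KO) log2 RPKM in pre-cDC1, and 2.70 and 3.76 (WT) and 3.77 and 3.46 (KO) in pre-cDC2. The pre-cDC1 libraries scattered over more than 3 log2 units, from 10 to 137 reads, and all lay below the pre-cDC2 libraries with 628 to 1061 reads. It passed in KO (4.76 ± 1.23 log2; limma adjusted p = 0.0239; 0.146 without KO pre-cDC2 replicate 1) and not in WT (3.51 ± 1.23; limma adjusted p = 0.105).

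Dhx58 (ENSMUSG00000017830.15, chromosome 11, 100694884 to 100704271) went the other way, with 5.01, 4.83 and 4.93 (WT) and 4.77, 4.98 and 5.0 (KO) log2 RPKM in pre-cDC1, and 4.61 and 3.66 (WT) and 4.06 and 3.98 (KO) in pre-cDC2. Every pre-cDC1 library was above every pre-cDC2 library, and WT pre-cDC2 replicate 2 came closest to them. Dhx58 was lower in pre-cDC2 in KO, with -0.90 ± 0.24 log2 (limma adjusted p = 0.0294; 0.145 without KO pre-cDC2 replicate 2), and in WT the difference of -0.79 ± 0.24 did not pass (limma adjusted p = 0.0720). Ddx60 (ENSMUSG00000037921.15, chromosome 8, 61928087 to 62038244) had -2.36, -1.14 and -1.29 (WT) and -2.87, -0.48 and -1.63 (KO) log2 RPKM in pre-cDC1, and 0.11 and 0.87 (WT) and 1.41 and 1.69 (KO) in pre-cDC2. It had 128 to 244 reads in pre-cDC2 against 12 to 61 in pre-cDC1 and passed in KO (3.21 ± 0.83 log2; limma adjusted p = 0.0236; 0.125 without KO pre-cDC2 replicate 2) and not in WT (2.08 ± 0.83; limma adjusted p = 0.151). Ifih1, at 2.03 to 3.07 log2 RPKM in all 10 libraries, differed by 0.04 ± 0.33 in WT (95% interval -0.69 to 0.77) and -0.20 ± 0.33 in KO. Zbp1, a sensor of left-handed nucleic acids that starts necroptosis, lay at 2.78 to 4.33 log2 RPKM and passed neither test, nor did Eif2ak2. Eif2ak2 encodes PKR, the kinase that halts translation on double-stranded RNA, and it had 2.71, 2.99 and 3.23 (WT) and 3.62, 3.47 and 3.25 (KO) log2 RPKM in pre-cDC1, and 2.99 and 2.42 (WT) and 3.02 and 2.82 (KO) in pre-cDC2.

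Among the other antiviral effectors, Rtp4, a regulator of receptor transport and of interferon responses, had the second largest difference in KO pre-cDC2 against KO pre-cDC1 after Gbp7. Rtp4 (ENSMUSG00000033355.6, chromosome 16, 23520291 to 23614222) had 0.34, -0.07 and -0.17 (WT) and -2.37, -3.22 and -0.81 (KO) log2 RPKM in pre-cDC1, and 2.17 and 3.39 (WT) and 3.41 and 2.68 (KO) in pre-cDC2. Reads were 18 to 24 in WT and 2 to 9 in KO pre-cDC1, and 119 to 249 in pre-cDC2. The differences were 2.75 ± 0.73 log2 in WT (limma adjusted p = 0.0402; 0.223 without WT pre-cDC2 replicate 3) and 5.18 ± 0.73 in KO (limma adjusted p = 0.00120). Ifitm3 had 6.88, 6.98 and 6.79 (WT) and 6.66, 6.50 and 7.08 (KO) log2 RPKM in pre-cDC1, and 8.20 and 6.39 (WT) and 7.44 and 7.42 (KO) in pre-cDC2. WT pre-cDC2 replicates 2 and 3 were the highest and the lowest of all 10 libraries, and Ifitm3 passed in neither genotype, with 0.41 ± 0.42 log2 in WT and 0.68 ± 0.42 in KO.

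Isg20, an RNA exonuclease, was among the steadiest members, with 2.19, 2.23 and 2.27 (WT) and 2.45, 1.70 and 2.02 (KO) log2 RPKM in pre-cDC1, and 2.14 and 2.16 (WT) and 1.90 and 2.05 (KO) in pre-cDC2. Its differences between cell types were -0.08 ± 0.28 log2 in WT (95% interval -0.71 to 0.54) and -0.08 ± 0.28 in KO (95% interval -0.70 to 0.54). Rsad2, which encodes viperin and makes a chain-terminating nucleotide, and its neighbour Cmpk2, which supplies nucleotides for it, passed neither test. Rsad2 lay at 0.80 to 2.52 log2 RPKM and Cmpk2 at 2.26 to 3.39. Samd9l, a restriction factor of poxviruses, was lower in every pre-cDC2 library than in every pre-cDC1 library, with differences of -0.61 ± 0.21 log2 in WT (limma adjusted p = 0.0959) and -0.60 ± 0.21 in KO (limma adjusted p = 0.0698), and passed neither test.

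ISG15 is a ubiquitin-like protein that is joined to other proteins, HERC6 is its ligase in the mouse, and USP18 removes it and also blocks IFNAR2. None of these 3 genes passed in either genotype. Isg15 had 0.85, 1.95 and 1.53 (WT) and 2.54, 1.37 and 2.70 (KO) log2 RPKM in pre-cDC1, and 2.25 and 2.52 (WT) and 1.87 and 1.99 (KO) in pre-cDC2. Its reads were few, 12 to 49 per library, and the difference was 0.94 ± 0.46 log2 in WT (95% interval -0.09 to 1.97) and -0.27 ± 0.46 in KO (95% interval -1.30 to 0.76). Usp18 was steady at 4.27 to 4.87 log2 RPKM in all 10 libraries, and its difference was 0.25 ± 0.19 in WT (95% interval -0.17 to 0.68) and 0.07 ± 0.19 in KO. Herc6 lay at 0.46 to 1.64 log2 RPKM.

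Of the nuclear proteins and their relatives, Sp100, a component of PML nuclear bodies, passed in both genotypes. Sp100 (ENSMUSG00000026222.16, chromosome 1, 85649988 to 85709998) had 5.80, 5.61 and 5.73 (WT) and 5.53, 5.56 and 5.56 (KO) log2 RPKM in pre-cDC1, and 6.07 and 6.53 (WT) and 6.50 and 6.39 (KO) in pre-cDC2. All pre-cDC2 libraries lay above all pre-cDC1 libraries, by 0.59 ± 0.15 log2 in WT (limma adjusted p = 0.0360; 0.111 without WT pre-cDC1 replicate 2) and 0.89 ± 0.15 in KO (limma adjusted p = 0.00336). Trim30a, which dampens Toll-like receptor signalling in mice, had 6.48, 6.77 and 6.52 (WT) and 6.66, 6.79 and 6.75 (KO) log2 RPKM in pre-cDC1, and 6.68 and 6.12 (WT) and 6.21 and 6.52 (KO) in pre-cDC2. It passed in neither, with -0.19 ± 0.19 log2 in WT and -0.36 ± 0.19 in KO. The neighbours Parp9 and Parp14, ADP-ribosyltransferase family members, passed in neither, and Parp14 came close in WT (0.80 ± 0.23 log2; limma adjusted p = 0.0516).

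Lgals3bp, a secreted glycoprotein that binds galectins, had the smallest spread of the members that passed. Lgals3bp (ENSMUSG00000033880.11, chromosome 11, 118392751 to 118402092) had 6.14, 5.92 and 6.14 (WT) and 6.08, 6.20 and 6.07 (KO) log2 RPKM in pre-cDC1, and 6.69 and 6.58 (WT) and 6.51 and 6.66 (KO) in pre-cDC2. No pre-cDC1 library reached a pre-cDC2 library, and the differences were 0.57 ± 0.13 log2 in WT (limma adjusted p = 0.0226; 0.0784 without WT pre-cDC1 replicate 2) and 0.47 ± 0.13 in KO (limma adjusted p = 0.0320; 0.168 without KO pre-cDC2 replicate 2). It was also the only member that passed in WT both without replicate 2 and without replicate 3 of pre-cDC2. Ifi27l2a (ENSMUSG00000079017.3, chromosome 12, 103442167 to 103443680), a small membrane protein gene, had 5.24, 5.17 and 5.27 (WT) and 4.89, 4.95 and 5.82 (KO) log2 RPKM in pre-cDC1, and 6.75 and 4.90 (WT) and 6.78 and 6.82 (KO) in pre-cDC2. WT pre-cDC2 replicate 3 lay in the range of pre-cDC1, and the other 3 pre-cDC2 libraries lay close together above it. It passed in KO (1.58 ± 0.46 log2; limma adjusted p = 0.0390; 0.173 without KO pre-cDC2 replicate 1) and not in WT (0.60 ± 0.46; limma adjusted p = 0.471).

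Ifi44 (ENSMUSG00000028037.13, chromosome 3, 151730922 to 151749960) was lower in pre-cDC2, with 2.87, 2.74 and 2.91 (WT) and 2.71, 3.46 and 3.15 (KO) log2 RPKM in pre-cDC1, and 2.22 and 0.71 (WT) and 1.08 and 2.10 (KO) in pre-cDC2. The difference passed in KO (-1.52 ± 0.46 log2; limma adjusted p = 0.0461; 0.321 without KO pre-cDC2 replicate 1) and not in WT (-1.38 ± 0.46; limma adjusted p = 0.0924). Ifi35 had 5.75, 6.06 and 5.88 (WT) and 5.81, 5.14 and 5.43 (KO) log2 RPKM in pre-cDC1, and 6.07 and 5.56 (WT) and 5.34 and 5.42 (KO) in pre-cDC2. Xaf1, a gene linked to cell death, had 2.62, 2.68 and 2.42 (WT) and 2.64, 2.15 and 2.79 (KO) log2 RPKM in pre-cDC1, and 3.25 and 3.03 (WT) and 2.88 and 2.31 (KO) in pre-cDC2. Neither Ifi35 nor Xaf1 passed, and the largest of their differences between cell types was 0.56 ± 0.27 log2 for Xaf1 in WT.

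The members did not differ together between WT pre-cDC2 replicate 2 and the other 3 pre-cDC2 libraries. In this library 17 members lay above the range of the other 3 (45.9%), 11 below (29.7%) and 9 within it, against 32.4% above and 31.4% below over all tested genes. Farthest below were Gbp2 (-2.98 log2 from the mean of the other 3), Gbp7 (-2.55), Oas3 (-1.70), Zbp1 (-1.35) and Ddx60 (-1.22). Farthest above were Oas2 (1.53), Mx2 (1.18), Oasl2 (1.13), Ifitm3 (1.11) and Ifi44 (0.92). Members of 1 family thus took opposite sides, as Oas2 and Oasl2 did against Oas3. The T cell and NK cell marker lists were lower in this library and the plasmacytoid and cDC2 lists higher (means of 5.59 and 5.09 log2 RPKM, against 4.35 to 5.05 and 3.68 to 3.95 in the other 3). The part of those transcripts in the members' values was not tested.

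**Figure D4:**
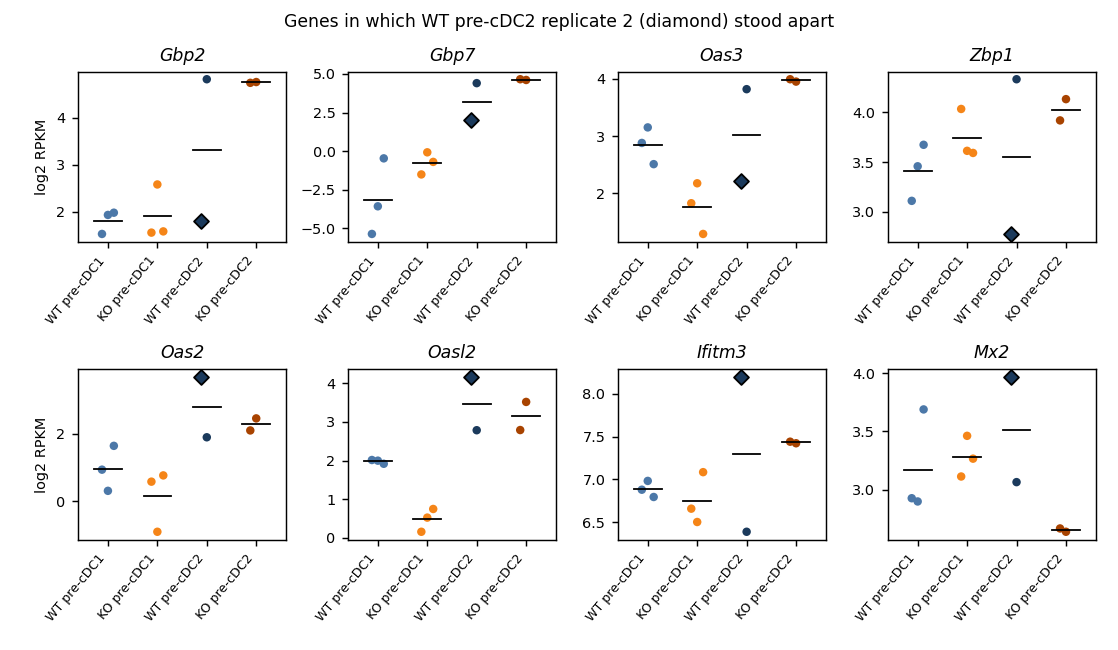
Level in log2 RPKM of the 4 members farthest below (Gbp2, Gbp7, Oas3, Zbp1) and of 4 of those farthest above (Oas2, Oasl2, Ifitm3, Mx2) the other pre-cDC2 libraries in WT pre-cDC2 replicate 2, chosen after their values were seen. Points are libraries, the diamond is that library, and lines are group means; Gbp2 of the diamond is 1.80, against 4.75 to 4.82 in the other pre-cDC2 libraries.

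KO was compared with WT to ask whether loss of Adam10 driven by CD11c-cre goes with other ISG levels. In pre-cDC1 no member passed by limma or, on the recovered reads, by voom, against 4 of all tested genes (0.0271%). At an unadjusted p below 0.05 there were 5 members (13.5%, against 9.03% of all tested genes), all lower in KO (Oas1a, Oasl2, Rtp4, Oas3 and Ifit1). The signs were 17 higher and 20 lower in KO, with a median of -0.01 log2 (-0.0038 over all tested genes). The groups did not overlap for 7 members (18.9%, against 17.2% of all tested genes), 2 higher in KO and 5 lower. In KO pre-cDC1 none of the tested T cell, NK cell, cDC2 and plasmacytoid markers passed either, yet 15 of 16, 12 of 12, 10 of 11 and 7 of 11 were below WT, with medians of -2.57, -2.18, -1.88 and -0.33 log2. All 5 tested B cell markers were also below WT (median -3.25 log2), and 7 of 8 erythroid and 9 of 10 cDC1 markers were above it (medians 1.86 and 0.37), none passing. The part of these transcripts in the members' values was not tested.

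The 4 members of lowest p were 3 OAS family genes and Rtp4. Oasl2 stood at 1.92 to 2.02 log2 RPKM in WT and 0.16 to 0.75 in KO pre-cDC1, a difference of -1.499 ± 0.38 log2 (limma adjusted p = 0.208). Oas1a stood at 3.28 to 3.66 in WT and 2.28 to 2.76 in KO, a difference of -0.90 ± 0.22 (limma adjusted p = 0.203). For Oas3, whose WT values were 2.51 to 3.15 and KO values 1.29 to 2.18, the difference was -1.08 ± 0.40 (limma adjusted p = 0.444). In all 3 genes each KO library was below each WT library, and none passed. Rtp4 differed by -2.17 ± 0.65 (limma adjusted p = 0.319) on 18 to 24 reads in WT and 2 to 9 in KO, and Ifit1 by -1.36 ± 0.58 (limma adjusted p = 0.523) with overlapping groups. The fourth OAS member that was lower, Oas2, differed by -0.82 ± 0.61 (limma adjusted p = 0.785), and Oasl1 was 0.66 ± 0.51 apart on the higher side.

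Sp100 was also below WT in every KO pre-cDC1 library, with a difference of -0.16 ± 0.14 log2 (limma adjusted p = 0.817). Eif2ak2 and Ifit2 were above it in every library, by 0.47 ± 0.22 (limma adjusted p = 0.574) and 0.53 ± 0.24 (limma adjusted p = 0.560). Isg15, with overlapping groups, differed by 0.76 ± 0.41 (95% interval -0.16 to 1.68). For members with little spread the intervals were narrow, -0.21 to 0.31 log2 for Lgals3bp, -0.28 to 0.48 for Usp18, -0.24 to 0.52 for Trim30a and -0.60 to 0.23 for Mx1. For Gbp7 and Ddx58 they spanned several log2 units, -0.19 to 4.94 and -3.34 to 1.62.

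**Figure D5:**
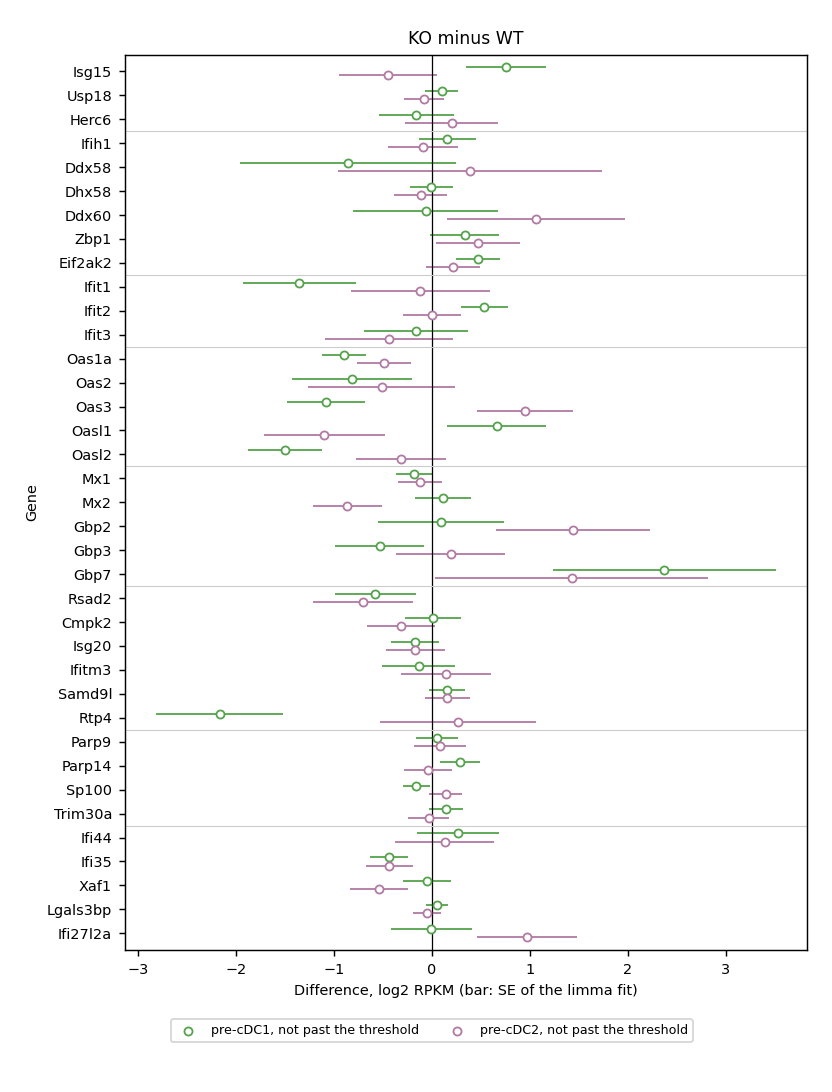
Difference between KO and WT for each member in log2 RPKM (points, with bars of ± SE from the limma fit), in pre-cDC1 (green) and pre-cDC2 (purple). All points are open because no member passed the test in either cell type, and Rtp4 and Oasl2 of pre-cDC1 lie farthest to the left.

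In pre-cDC2 no member passed either by limma or voom, against 10 of all tested genes (0.0676%), and 1 (Mx2) had an unadjusted p below 0.05 (2.70%, against 6.67% of all tested genes). The median was -0.04 log2 (0.0048 over all tested genes), with 17 higher and 20 lower in KO. The groups did not overlap for 10 members (27.0%, against 30.2% of all tested genes). Higher in both KO libraries were Ddx60, Oas3, Gbp7 and Ifi27l2a, and lower were Isg15, Oasl1, Mx2, Isg20, Ifi35 and Xaf1. Mx2 differed by -0.86 ± 0.35 log2 (limma adjusted p = 0.714), Ifi35 by -0.44 ± 0.24 (limma adjusted p = 0.806) and Xaf1 by -0.54 ± 0.30 (limma adjusted p = 0.806). Isg15 differed by -0.45 ± 0.50, Isg20 by -0.17 ± 0.30 and Ifi27l2a by 0.97 ± 0.51 (limma adjusted p = 0.794).

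Markers of other cells moved beside these values. All 16 T cell and all 12 NK cell markers were above WT in KO pre-cDC2 with medians of 1.56 and 2.02 log2, none passing, and 2 of 8 tested erythroid markers passed as higher, with a median of 3.98 log2 over the 8. Their part in the members' values was not tested.

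These pre-cDC2 values depend on which WT library is kept. Without WT replicate 3, so that WT replicate 2 stands alone, 3 members passed (8.11%, against 7.09% of all tested genes in the same fit), all higher in KO. They were Gbp2 (2.95 ± 0.45 log2; limma adjusted p = 0.0107), Oas3 (1.75 ± 0.40; limma adjusted p = 0.0431) and Zbp1 (1.25 ± 0.29; limma adjusted p = 0.0443). Without WT replicate 2 the same genes differed by -0.07 ± 0.44, 0.15 ± 0.39 and -0.31 ± 0.29 log2, and no member passed. The fit with a lone WT library assumes that it varies like the other groups.

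The difference between KO and WT in pre-cDC2 was set against that in pre-cDC1 by the interaction term of the same fit. No member passed by limma (0.0203% of all tested genes did) or voom, and 2 had an unadjusted p below 0.05 (5.41%, against 4.82% of all tested genes). They were Oas3, with 2.03 ± 0.63 log2 (limma adjusted p = 0.850), and Rtp4, with 2.44 ± 1.03 (limma adjusted p = 0.987). Without WT pre-cDC2 replicate 3, Gbp2 (2.86 ± 0.55; limma adjusted p = 0.037) and Oas3 (2.83 ± 0.48; limma adjusted p = 0.0239) passed, 2 of 37 members (5.41%) against 3.35% of all tested genes in that fit. The members that passed between cell types in KO and not in WT are therefore not shown to differ between the genotypes.

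The upstream genes of the pathway were read from lists chosen beside the members. For single genes of the pathway lists, unlike the members, no value is given from the fits that left out a library. Whether their calls hold in all of those fits is thus not shown here. Of 17 genes for type I interferons, with Ifnk left aside, 11 had no read in any library and the other 6 had at most 6 reads in a library. Their summed reads were 0 in 5 libraries and at most 9, and a count of 0 allows up to 3 reads. Messages of most of these 17 genes were thus not detectable at this depth. This does not hold for the whole list of 21 interferon genes. It had 24 reads in WT pre-cDC1 replicate 1, where 20 of its genes had none. Over that list, Ifng included, the reads were 6 to 25 per pre-cDC1 library and 101 to 443 per pre-cDC2 library. Values of Ifnk are not given here. Ifng, the gene for interferon gamma that T cells and NK cells are known to make, had 29 and 402 reads in the WT and 186 and 184 in the KO libraries of pre-cDC2, against 0, 15 and 1 (WT) and none (KO) in those of pre-cDC1. It was higher in pre-cDC2 in KO (9.66 ± 1.71 log2, fitted against a group with no read and so no measure of fold; limma adjusted p = 0.00403) and did not pass in WT (5.67 ± 1.71; limma adjusted p = 0.0655). Its low value in WT pre-cDC2 fell in replicate 2, the library with the lowest T cell and NK cell marker levels of the pre-cDC2 libraries, and the source of these reads was not tested.

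The receptor subunits Ifnar1 and Ifnar2 were well expressed everywhere. In pre-cDC1 Ifnar1 stood at 5.67 to 5.97 log2 RPKM and Ifnar2 at 4.39 to 4.97, in pre-cDC2 at 6.06 to 6.92 and 4.82 to 5.26, and neither passed between the cell types. Of the 6 receptor genes on the list, 2 were lower in WT pre-cDC2 and 3 in KO pre-cDC2. Ifngr1, of the interferon gamma receptor, was lower, with -1.85 ± 0.35 log2 in WT (limma adjusted p = 0.010) and -1.36 ± 0.35 in KO (limma adjusted p = 0.0235). Ifnlr1, of the interferon lambda receptor, had 0 to 2 reads in pre-cDC2 against 21 to 117 in pre-cDC1 and passed in both. Ifngr2 passed in KO (-1.73 ± 0.37; limma adjusted p = 0.00976).

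Among the 6 genes of the kinases and ISGF3, Tyk2 was lower in pre-cDC2 in WT (-0.92 ± 0.18 log2; limma adjusted p = 0.0102) and in KO (-1.03 ± 0.18; limma adjusted p = 0.00325). In KO, Jak1 was higher (2.53 ± 0.44; limma adjusted p = 0.00381) and Irf9 lower (-0.71 ± 0.22; limma adjusted p = 0.0474). Of 10 negative regulators, Socs3 was higher in pre-cDC2 in both genotypes (2.85 ± 0.31 and 3.08 ± 0.31 log2; limma adjusted p = 0.000591 and 0.000246). Ptpn6 and Socs1 were higher and Etv6 was lower in KO. Of 14 genes that lead to interferon production, Tlr3 and Cgas were lower in pre-cDC2 in both genotypes, with -6.72 ± 0.33 and -1.21 ± 0.27 log2 in WT (limma adjusted p = 3.92e-06 and 0.0210). Tlr7 was higher and Ticam1 lower in KO.

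A wider list held 60 other interferon-inducible genes, 59 of them tested. In WT pre-cDC2, 9 were higher and 9 lower (30.5%, against 11.5% of all tested genes). In KO pre-cDC2, 17 were higher and 11 lower (47.5%, against 20.8% of all tested genes). Of the members, 8 were higher and 1 lower in WT in the same fit, and Gbp7 and Rtp4 among them passed the filter only through pre-cDC2. The WT median was 0.56 log2 over the members and 0.19 over the wider list. Without WT pre-cDC2 replicate 2 these medians were 0.54 and 0.37, and without replicate 3 they were 0.62 and 0.18. Both splits rest on WT pre-cDC2 libraries that differ from each other, and whether the lists differ was not tested. Ifi205 and Ifi203, both of the DNA-sensing IFI200 family, moved in opposite directions, with -4.71 ± 0.34 and 1.21 ± 0.15 log2 in WT (limma adjusted p = 4.68e-05 and 0.00107). Psmb9, of the immunoproteasome, was lower (-1.86 ± 0.18 in WT; limma adjusted p = 0.000241), and Ly6a was higher (2.96 ± 0.32 in WT; limma adjusted p = 0.000503). Between KO and WT no gene of the 6 pathway lists passed in either cell type. The closest was Ifi203 in pre-cDC1, at 4.35 to 4.71 log2 RPKM in WT and 3.76 to 3.82 in KO (-0.78 ± 0.13; limma adjusted p = 0.0745).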

How the data were processed

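RNA sequencing of 10 libraries, WT and KO of pre-cDC1 and pre-cDC2, was read from the deposited table of log2 RPKM values. Per the labels' protocols, RNA was isolated on PicoPure columns and libraries were amplified by SMARTSeq v2 with ERCC spike-ins. The submitters' processing notes name STAR 2.3, featureCounts 1.5.0, R 3.3.3 and edgeR, and build GRCm38 (mm10), without saying which step each served. No source used here gives the annotation, the strand setting, the treatment of shared reads or how the authors scaled their log2 values. Solving the values for whole reads with GENCODE M21 gene lengths gave whole numbers within 0.001 reads for all 490350 values of the 49035 genes with a length. Recovered totals were 7862417 to 13177642 reads per library, and reads without molecular identifiers cover counting error only.

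Genes above 0 log2 RPKM in at least 2 libraries were tested (14787) with no further pseudocount. The fit took all 10 libraries with a mean for each of the 4 groups and eBayes with a trend (limma 3.58.1, R 4.3.3), with 6 residual and 3.31 prior degrees of freedom. Tests were two-sided, with Benjamini-Hochberg adjustment over all genes within each of the comparisons and a threshold of 0.05. Intervals are 95% intervals of the same fit. The alternatives were other filters, 1 RPKM added, centring, quantile normalization, no trend, only the compared groups, replicate blocks, voom on the recovered reads and leaving out each library. The procedure was also run on simulated data with the same dispersion (0.1) for all genes and libraries, and the outcome is not given here. Those data held no difference like that between the WT pre-cDC2 libraries, so they cannot show how the procedure handles it. Values per library are given for members past the threshold, for the 2 highest and 2 lowest levels, and for up to 3 members per role whose WT and KO groups did not overlap. Pathway genes named are those past the threshold with the smallest p, at most 4 per list and comparison. The members and lists (8 roles, 6 pathway lists of 117 genes, 10 marker lists) were chosen with earlier results of these data known. Coordinates are those of GENCODE M21 for 35 members by versioned identifier and for Mx1 and Mx2 by stable identifier, and promoter sequences are from RefSeq (GRCm38.p6). Values of some single genes of the lists are not reported here.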

Additional observations from a re-analysis of the deposited data

How the results depend on the processing

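No member passed between KO and WT in pre-cDC1 under any alternative, and none did in pre-cDC2 except without WT pre-cDC2 replicate 3 (0 to 3 over the fits that left out a library each), where the median over members ran from -0.16 to 0.023 log2. For pre-cDC2 against pre-cDC1 in WT, 9 members passed, against 12 by voom, 3 without the trend, 0 with only the compared groups in the fit, 1 with a replicate block and 2 to 10 with a library left out (2 without WT pre-cDC1 replicate 1). Centring on library medians lowered the median over members to 0.44 log2 in WT and 0.14 in KO. For the fits with centring, without the trend or with a block, the share of all tested genes is not given here. For KO, 17 passed, against 4 with a replicate block (median 0.44) and 5 to 20 with a library left out (5 without KO pre-cDC2 replicate 2; median 0.31 to 0.44). The interaction had 0 to 2 members and a median from -0.14 to 0.17 with a library left out. The blocks pair libraries by number. The descriptions carry the same code (such as WT2) for both cell types and do not say whether it names a mouse. Deviations of same-numbered libraries from their group means correlated at -0.03 to 0.03, which does not settle it. No block was used in the reported values, and the block by number in KO against WT left 0 members in both cell types. The main fit called 26 differences of members, and each was counted once per alternative. Of these pairs of a difference and an alternative, 346 stayed past the threshold with the same direction, 147 lost it and none turned. Among members that did not pass, 11 of 37 (pre-cDC1) and 23 of 37 (pre-cDC2) differences between KO and WT changed sign in some alternative. Over all genes, the count ran from 0 to 114 (main 4) in pre-cDC1, 0 to 1048 (main 10) in pre-cDC2, 217 to 2722 (main 1697) between cell types in WT, 1094 to 3887 (main 3074) in KO and 0 to 495 (main 3) for the interaction. The causes were not tested. Members with few reads, such as Isg15, Rtp4 and Gbp7 in pre-cDC1, are the least precise.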
